A study of Homo sapiens with 5 samples.

Results

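The DLK1-DIO3 region of human chromosome 14 holds one of the largest groups of miRNA genes in the genome. The probes for these miRNAs were chosen by the number in the miRNA name, from a list of 43 numbers that covers the cluster, with every arm and suffix included. The list took 53 of the 654 human miRNA probes on the panel, for miRNAs of 48 hairpins, since 3 of the miRNAs have 2 hairpins each, and 1 number, miR-411, had no probe. Total RNA of 5 untreated hematopoietic cell lines was extracted with Trizol, and 100 ng per line was counted on the nCounter system, which tallies a color-coded reporter for each miRNA without amplification. Meg-01 is a megakaryoblastic line from chronic myelogenous leukemia, Jurkat is T-lymphoblastic, Raji is a B-lymphoblastic Burkitt lymphoma line that carries Epstein-Barr virus (EBV), U937 is monocytic, and K562 is an erythroleukemic line from chronic myelogenous leukemia. All are transformed lines, so each stands for itself and not for the normal cell of its lineage. Each line was measured in 1 sample. No difference between lines could be tested, and the 95% intervals given below cover counting error only.

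The miRNAs of this locus are imprinted. They are cut from long noncoding transcripts that are made from the maternally inherited chromosome, whereas the protein-coding genes of the region, DLK1, RTL1 and DIO3, are read from the paternal one. One group lies near the noncoding gene MEG3 and antisense to RTL1, and the other, from miR-379 to miR-656, forms a dense run farther along the same strand. The miRNAs are best known from brain, embryo and placenta, where many of them are made together, and high levels have also been described in acute promyelocytic leukemia. In the RefSeq miRNA table of GRCh38.p14 all of them lay on the plus strand, over 214.378 kb from miR-770-5p to miR-656-3p (chr14:100852409-101066786). A gap of 110.863 kb separated miR-370, the last hairpin on the MEG3 and RTL1 side, from miR-379. The files name no genome build, and all positions here are those of the RefSeq table.

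The sequences that carry the main result are those of the 8 members whose scaled count in Meg-01 was at least 2-fold that of every other line, with a line below its background threshold entered at that threshold. They are printed 5′ to 3′ as RefSeq gives them, with bases 2 to 8, the seed that pairs with target RNAs, in capitals. The arm was taken from the probe name or from the list of names used in the study. For miR-495 and miR-376c neither gave an arm, and both arms are shown.
miR-431-5p: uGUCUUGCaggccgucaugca
miR-136-5p: aCUCCAUUuguuuugaugaugga
miR-543: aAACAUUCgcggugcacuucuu
miR-495-5p: gAAGUUGCccauguuauuuucg
miR-495-3p: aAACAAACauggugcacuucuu
miR-376c-5p: gGUGGAUAuuccuucuauguu
miR-376c-3p: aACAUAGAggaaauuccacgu
miR-376a-3p: aUCAUAGAggaaaauccacgu
miR-377-3p: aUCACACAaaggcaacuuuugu
miR-369-3p: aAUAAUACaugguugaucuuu

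The 10 sequences had 10 different seeds, so no seed was shared among these members. Their order above is their order along the chromosome. The first in that order, miR-431-5p, lay at chr14:100881026-100881046, and miR-136-5p at chr14:100884716-100884738, both in the part known to be antisense to RTL1. On the other side of the gap miR-543 lay at chr14:101032033-101032054, miR-495-3p at chr14:101033804-101033825 and miR-376c-3p at chr14:101039732-101039752. The sequence of miR-376a-3p occurred in 2 hairpins, MIR376A2 (chr14:101040118-101040138) and MIR376A1 (chr14:101040825-101040845), and the probe cannot tell them apart. Near the far end lay miR-377-3p at chr14:101062094-101062115 and miR-369-3p at chr14:101065641-101065661. Close relatives exist within the cluster. Over the 21 bases compared, miR-376a-3p and miR-376c-3p differed at 2 positions, and miR-376a-3p and miR-376b-3p differed at 1 position outside the seed. Over 22 bases miR-495-3p and miR-543 differed at 4 positions. How far the probes separate such relatives was not tested. Among the 35 members with an assigned sequence, 1 pair had the same seed, miR-541 and miR-654-5p, and neither was above background in any line.

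Counts summed over the human probes were 66892 to 130048 per line, lowest in Raji and highest in Jurkat. A probe was called detected when its count, after scaling by the geometric mean of the top 100 human probes, exceeded the mean plus 2 SD of that line's 8 negative controls. In raw counts that threshold was 42.1 in Meg-01 and 35.0, 45.9, 34.9 and 34.6 in Jurkat, Raji, U937 and K562. The labels of the lines were set against known markers. The hematopoietic miR-142-3p was read at 7436 to 32907 counts in all 5 lines. The megakaryocytic and erythroid miR-126 was read at 1954 in Meg-01 and 1482 in K562 and at 31 to 99 elsewhere, and the lymphoid miR-150 at 1030 in Jurkat and 13 to 21 elsewhere, Raji with 21 included. The other lymphoid marker, miR-181a, did not follow the labels, with 2551 counts in Jurkat and 2417 in Meg-01 but 171 in Raji, and 238 and 64 in U937 and K562. Of 34 EBV probes, 16 were detected in Raji and 5 to 9 in the other lines. The 46 probes for other viruses, whose targets should be absent, passed the threshold 10 times in Jurkat (21.7%), 4 times each in U937 and K562 (8.70%) and 3 times each in Meg-01 and Raji (6.52%).

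More members of the cluster were above background in Meg-01 than in any other line. In Meg-01, 30 of the 53 members were detected, or 56.6%, against 27.2% of all 654 human probes. In Jurkat 13 members were detected, where 35.0% of all human probes were. Detection reached 4 members for Raji (all human probes, 17.0%), 9 for U937 (28.3%) and 8 for K562 (27.5%). As shares of the 53 members these were 24.5%, 7.55%, 17.0% and 15.1% in Jurkat, Raji, U937 and K562, each below the share of the whole panel in that line. In some of these lines the order turned under lower thresholds. With a raw minimum of 30 counts Raji had 47.2% of members against 43.4% of human probes, and with the mean of the negative controls the shares were 71.7% against 71.3% in Jurkat, 64.2% against 61.9% in Raji and 64.2% against 62.8% in K562. In bulk RNA a level shared by all cells and a higher level in some of them cannot be told apart. The members' median raw count was 51 in Meg-01 and 26, 27, 26 and 23 in Jurkat, Raji, U937 and K562. The median raw count over all human probes was 28 in Meg-01 and 24 to 28 in the other 4 lines. After scaling the members' median was 37.8 in Meg-01, below the 42.6 of Raji. It was 20.9, 27.1 and 28.1 in Jurkat, U937 and K562. The members made up 5.03% (95% interval 4.90 to 5.16) of all human counts in Meg-01. The share was 2.52% (2.41 to 2.65) in Raji, 1.76% (1.68 to 1.85) in U937, 1.40% (1.33 to 1.47) in K562 and 1.27% (1.21 to 1.34) in Jurkat. Most of the share in the last 4 lines came from counts at or below the threshold. With each line's threshold subtracted and undetected probes at 0 the share was 4.05% in Meg-01 and 0.242% to 0.414% in the others.

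**Figure D1:**
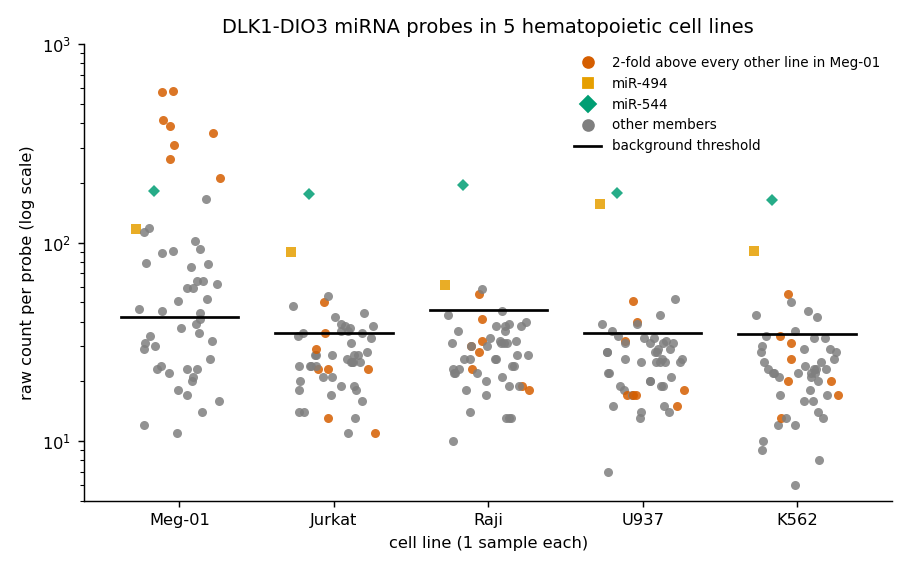
Raw count of each of the 53 cluster probes in each cell line, on a log axis; each point is 1 probe and the black line is the line's background threshold. The 8 members called 2-fold above every other line (211 to 579 counts in Meg-01) lie at 11 to 55 counts elsewhere, while miR-544 lies at 163 to 195 in every line.

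Across the 5 lines 39 members were detected in at least 1 line, against 47.1% of all human probes, and 14 were detected in none, with counts of 6 to 35. Detection in a single line set Meg-01 apart. The probes detected there and nowhere else were 21, or 3.21% of the panel, and 20 of them were members of the cluster. The other was miR-146b-5p, at 48 counts in Meg-01 and 24 to 34 elsewhere. The 20 members were miR-299-5p, miR-329, miR-337-3p, miR-337-5p, miR-369-3p, miR-376a, miR-376b, miR-376c, miR-377, miR-382, miR-432, miR-433, miR-485-3p, miR-487a, miR-487b, miR-495, miR-496, miR-543, miR-656 and miR-889. In Jurkat alone 5 members were detected where 7.19% of human probes were, in Raji none (0.306%), in U937 2 (3.06%) and in K562 2 (2.6%). The 5 of Jurkat were miR-299-3p, miR-370, miR-380, miR-412 and miR-654-3p, the 2 of U937 miR-409-3p and miR-758, and the 2 of K562 miR-127-5p and miR-369-5p. Of the 20 members of Meg-01, miR-889, miR-656, miR-496 and miR-329 had higher scaled counts in Raji. They were at 46.0, 47.5, 38.6 and 33.4 in Meg-01 and 63.1, 60.0, 50.5 and 41.0 in Raji. Raji's scaled threshold was 72.4, against 31.2 in Meg-01, so they were not detected in Raji. The rest of the 20 had their highest scaled count in Meg-01, as did 21 members of the whole cluster. Detection in Meg-01 alone was chosen as a measure after the values were seen, and it depends on the threshold. With a raw minimum of 30 counts in place of it 13 of 26 such probes were members, and with the mean of the negative controls 4 of 16.

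**Figure D2:**
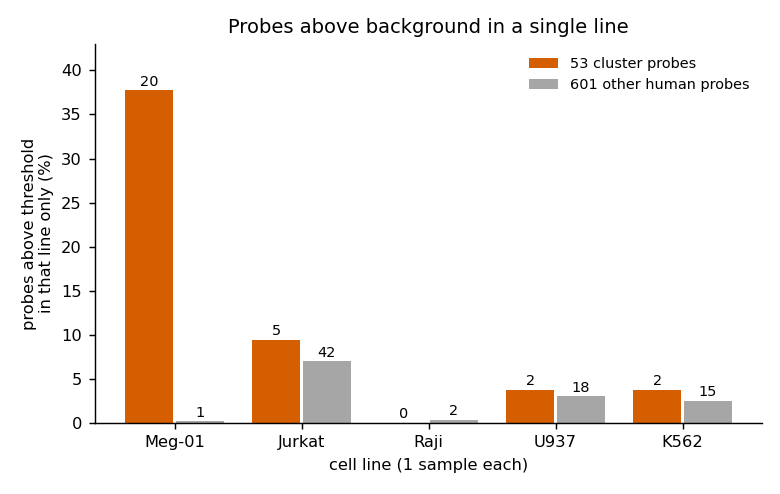
Percent of the 53 cluster probes and of the 601 other human probes that were above background in one line and in no other; the number of probes stands above each bar. In Meg-01 20 cluster probes and 1 other probe were detected in that line alone.

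How far a member lay above the other lines was asked with a stricter call. It needed a detected probe whose scaled count was at least 2-fold that of each other line, with another line entered at its threshold where its count was lower. In Meg-01 8 members met it, against 13 human probes, or 1.99% of the panel. The other 5 were miR-99a, miR-125b, miR-144, miR-1246 and miR-335. No member met it in Jurkat, where 0.917% of human probes did, in Raji (1.07%), in U937 (0.153%) or in K562 (1.68%). The 8 members had raw counts of 211 to 579 in Meg-01 with a median of 372.5, and of 11 to 55 in the other 4 lines. Of these 6 were detected in Meg-01 alone, miR-431 was also above the threshold in U937, and miR-136 was above it everywhere. Ranked by this ratio, 7 of the 10 highest human probes belonged to the cluster. Without scaling 13 members of 20 human probes (3.06%) met the call, and with scaled counts compared as they are, no line entered at its threshold, 11 of 16 (2.45%) did.

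The 2 highest members were miR-377 and miR-495. miR-377 was read at 579 counts (95% interval 533 to 628) in Meg-01 and 13, 32, 17 and 26 in Jurkat, Raji, U937 and K562. It ranked 26th among the human probes of Meg-01, and its scaled count was at least 5.93-fold that of any other line. miR-495 was read at 573 counts (527 to 622) in Meg-01 and at 29, 30, 32 and 34 in Jurkat, Raji, U937 and K562, a scaled count at least 5.87-fold higher. For both, every line but Meg-01 lay below its threshold, so these ratios are set by the threshold of Raji, the highest of the 4.

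The neighbors of miR-495 followed the same pattern. miR-376c and miR-376a belong to the miR-376 family, whose precursors are known to undergo A-to-I editing in the seed. miR-376c was read at 414 counts in Meg-01 and 23, 23, 17 and 13 in Jurkat, Raji, U937 and K562, at least 4.24-fold higher after scaling. miR-376a was read at 358 counts in Meg-01 and 23, 19, 15 and 20 in the same 4 lines, at least 3.67-fold higher. miR-543 had 211 counts in Meg-01 and 11, 18, 18 and 17 elsewhere, at least 2.16-fold higher. In none of the 3 did the interval of Meg-01 meet that of another line.

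The remaining 3 lay farther out on both sides. miR-136, from the RTL1 antisense group, was read at 387 counts in Meg-01 and 50, 55, 51 and 55 in Jurkat, Raji, U937 and K562. Its scaled count in Meg-01 was 3.30-fold that in Raji (2.49 to 4.47), a log2 ratio over the highest other line of 1.72 that was 2.81 without scaling and 2.46 scaled to the positive controls. It stood higher in Meg-01 than in all others, which had nearly the same raw count. The lower limit of that count was above the threshold in Jurkat, U937 and K562 and below it in Raji. miR-431, from the same group, had 309 counts in Meg-01 and 23, 41, 40 and 31 in Jurkat, Raji, U937 and K562, at least 3.16-fold higher in Meg-01. miR-369-3p, which is known to bind the AU-rich element of the TNF mRNA, had 264 counts in Meg-01 and 35, 28, 17 and 20 in Jurkat, Raji, U937 and K562, at least 2.70-fold higher.

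**Figure D3:**
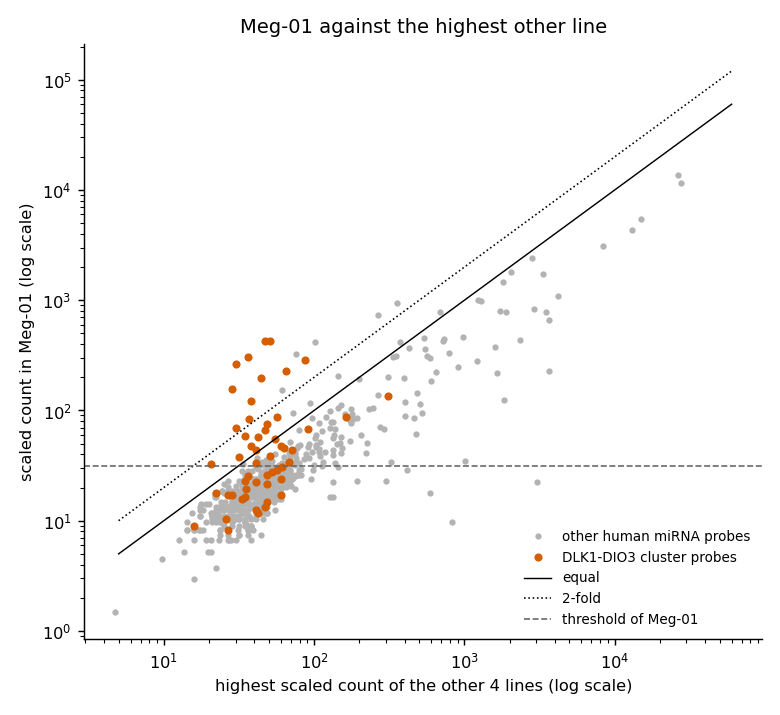
Scaled count in Meg-01 (y axis) against the highest scaled count of the other 4 lines (x axis) for all 654 human probes, both on log axes, with lines for equal and 2-fold counts and for the threshold of Meg-01. Cluster probes (orange) make up 8 of the 13 probes called 2-fold above every other line; the call also enters other lines at their thresholds, so some points above the dotted line were not called.

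By counting error alone the group was wider. The 95% interval of the scaled count in Meg-01 lay above that of every other line for 11 members, against 2.6% of all human probes, and without scaling for 19 members, against 5.20%. Beside the 8 these were miR-337-3p, miR-382 and miR-487b, the last 2 named after their values were seen. miR-337-3p was read at 165 counts in Meg-01 and 25, 24, 14 and 13 in Jurkat, Raji, U937 and K562. miR-382 had 93 counts in Meg-01 and 13 to 20 in the others, and miR-487b had 113 and 23 to 30. In 25 members the lower limit of the count was above the threshold in Meg-01, where 20.8% of human probes passed this, against 5 in Jurkat (21.9% of human probes), 4 each in U937 (17.4%) and K562 (18.5%) and 2 in Raji (13.1%).

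The pattern of Meg-01 was seen on both sides of the gap. On the MEG3 and RTL1 side 6 of 12 probes were detected in Meg-01, with a median of 46 raw counts. On the miR-379 to miR-656 side 24 of 41 were, with a median of 52, where 27.2% of all human probes were detected. The scaled medians of the 2 sides, 34.1 and 38.6 in Meg-01, were below those of Raji, 39.5 and 44.2. In each of the other lines 1 or 2 of the 12 and 3 to 11 of the 41 were detected, against 17.0% to 35.0% of all human probes. Of the 8 members 2-fold above every other line, 2 were on the MEG3 and RTL1 side and 6 on the other, and they map to 9 hairpins because miR-376a has 2. Within the locus the counts were uneven. Of 48 hairpins with a probe, 31 had a detected probe in Meg-01. The longest runs of neighboring hairpins with a detected probe were 7 from MIR329-1 to MIR376A2, 7 from MIR487B to MIR382 and 4 from MIR485 to MIR377. Hairpins without a probe were passed over in counting these runs. A probe for a miRNA with 2 hairpins counts at both and cannot say which is read. The first of these runs held miR-543, miR-495, miR-376c and miR-376a next to each other. Of the first 4 hairpins at the MEG3 end, miR-337 was detected on both arms in Meg-01, at 165 and 59 counts. Its neighbors miR-770-5p, miR-493 and miR-665 had 29, 23 and 12 counts there, all below the threshold, and 7 to 34 in the other 4 lines. The 5 highest members held 41.9% of the cluster's counts in Meg-01. The counts of different probes were not calibrated against each other, and their order within a line need not be that of the molecules.

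**Figure D4:**
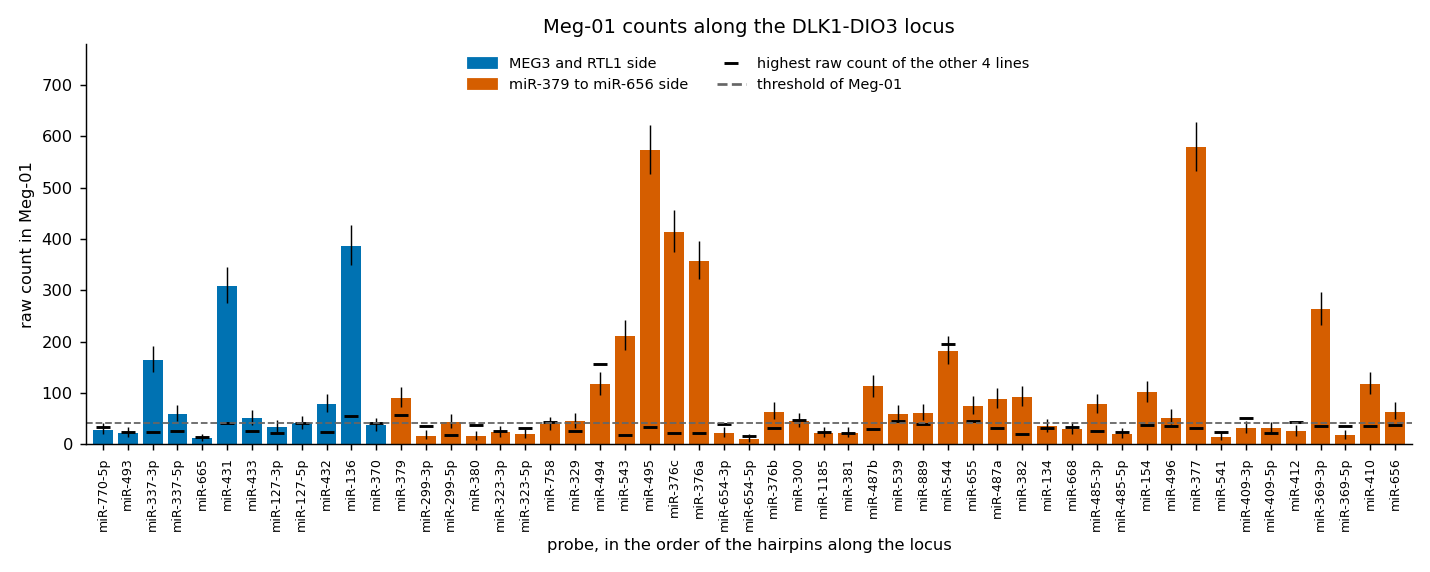
Raw count in Meg-01 of the 53 cluster probes in the order of their hairpins along the locus (the first one where a miRNA has 2), with exact Poisson 95% intervals; black ticks give the highest raw count of the other 4 lines and the dashed line the threshold of Meg-01. Counts of 211 to 573 stand side by side from miR-543 to miR-376a, and separate peaks stand at miR-431, miR-136, miR-377 and miR-369-3p. The ticks of miR-494, miR-544 and many probes with lower counts lie above their bars.

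A probe for each arm was present for 8 hairpins. For 4 of them an arm was detected in Meg-01, where 27.2% of all human probes were, and in 1, miR-337, both were. There the 3p arm was read at 165 counts and the 5p arm at 59, and in the other lines at 13 to 25 and 16 to 26. For miR-369 the 3p arm had 264 counts in Meg-01 and the 5p arm 18, below the threshold. For miR-485 the 3p arm had 78 counts and the 5p arm 21, and for miR-299 the order was turned, with 44 counts for the 5p arm and 17 for the 3p arm. In these 3 hairpins only the higher arm passed the threshold of Meg-01. In miR-127, miR-409 and miR-654 no arm was detected in Meg-01. miR-127-3p, a known repressor of BCL6, had 34 counts in Meg-01 and 14, 23, 15 and 23 in Jurkat, Raji, U937 and K562, below the threshold everywhere, and miR-127-5p had 41, 27, 39, 31 and 42. miR-409-3p had 52 counts in U937 and 28 to 38 elsewhere, with miR-409-5p at 10 to 31. miR-654-3p had 39 counts in Jurkat and 23 to 38 elsewhere, with miR-654-5p at 6 to 17.

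In all 5 lines 4 members were detected, against 13.5% of all human probes, and 2 of them gave the highest member counts outside Meg-01. The count of 4 depended on the threshold, from 2 under the mean plus 3 SD (11.6% of human probes) to 8 with a raw minimum of 30 counts (23.2%) and 23 with the mean of the negative controls (43.3%). miR-544 was read at 182 counts in Meg-01 and 175, 195, 177 and 163 in Jurkat, Raji, U937 and K562, a 1.20-fold range of raw counts. It was the highest member in each line but Meg-01, and by rank among all human probes it stood 33rd in Raji to 58th in Meg-01. Its scaled counts ranged over 2.28-fold, highest in Raji, whose scaling factor of 1.58 was the largest of the 5. Whether a nearly equal raw count in 5 lines comes from the miRNA or from the probe was not tested. miR-494 was read at 117 counts in Meg-01 and 90, 61, 157 and 91 in Jurkat, Raji, U937 and K562. It was highest in U937, where its scaled count was higher than in Meg-01 (Meg-01 over U937, 0.53; 0.41 to 0.68), so it did not follow the pattern of its neighbors miR-543 and miR-495. miR-379, the first hairpin of the large group, had 91 counts in Meg-01 and 54, 58, 39 and 50 in Jurkat, Raji, U937 and K562. Its scaled counts in Meg-01 and Raji were within counting error of each other (ratio 0.74; 0.52 to 1.04), but the direction depended on the scaling. As log2 ratios of Meg-01 over the highest other line, miR-379 was at -0.44 as scaled here, 0.65 (0.16 to 1.15) without scaling and 0.40 (-0.09 to 0.90) scaled to the positive controls. The fourth of this group was miR-136, described above.

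Apart from miR-494 and miR-544, the members detected outside Meg-01 had low counts, at 55 to 58 in Raji, 36 to 54 in Jurkat, 36 to 52 in U937 and 36 to 55 in K562. Among them the lower limit was above the threshold for miR-136, miR-300 and miR-379 in Jurkat. The same held for miR-136 and miR-409-3p in U937 and for miR-136 and miR-379 in K562. The others were close to their thresholds. Just inside and just outside the threshold were miR-299-5p (44 counts) and miR-127-5p (41) in Meg-01. In Jurkat miR-299-3p and miR-539 (36) were inside and miR-369-3p, miR-410 and miR-496 (35) outside. In Raji miR-136 (55) was inside and miR-539 (45) outside. In U937 miR-410 (36) was inside and miR-668 (34) outside, and in K562 miR-369-5p (36) was inside and miR-410 and miR-495 (34) outside. At these counts a single member near the threshold cannot be called present in one line and absent from another. The 23 members not detected in Meg-01 had 11 to 41 counts there.

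Markers of other cell types were read beside the cluster. Of 6 fibroblast and stromal miRNAs, 3 were detected in Meg-01 and 4, 1, 4 and 5 in Jurkat, Raji, U937 and K562, and their summed scaled count was 340 in Meg-01 and 188 to 585 in the others, highest in U937. The 3 in Meg-01 were miR-199b-5p, with 187 counts there, 255 in U937 and 20 to 25 elsewhere, the joint probe for miR-199a-3p and miR-199b-3p, with 126 in Meg-01, 153 in U937 and 31 to 45 elsewhere, and miR-214, with 68 in Meg-01 and 44 to 122 elsewhere. The other 3, miR-143, miR-145 and miR-199a-5p, had 27, 23 and 28 counts in Meg-01, below its threshold. In the study's estimate most miR-199a/b-3p of blood cells came from platelets, so the joint probe does not mark stromal cells alone. The part of other cell types in the counts of the cluster was not tested. Of 4 neural miRNAs 2 were detected in Meg-01 and 1 to 3 in the others, their summed scaled count was 165 in Meg-01 and 152 to 578 in the others, and miR-124 had 19 to 25 counts in all 5 lines, below every threshold. Of 6 epithelial miRNAs 1 was detected in Meg-01 and 1 to 3 in the others, with a summed scaled count of 135 in Meg-01 and 151 to 303 in the others.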

How the data were processed

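The authors deposited raw counts of 753 probes per line as the instrument reads them, with no normalization or background subtraction, and a table of background-subtracted signal, made by taking 1 constant per line off the raw counts, with results under 0 set to 0. The raw counts were used here, and the deposited signal only as an alternative. In each file 4 probe names run into the next field and were read by position. The assay counts probes without alignment of reads, and no genome build is given in the sources used here.

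As in the study's methods, lines were put on a common scale through the geometric mean of the 100 human probes with the highest mean count (factors 0.741, 0.805, 1.58, 1.04 and 1.22 for Meg-01, Jurkat, Raji, U937 and K562), and the detection limit was 2 sample SD above the mean of the 8 negative controls in that line, after scaling. Each line was 1 sample, so no test was made. Intervals are exact Poisson for counts, exact binomial for shares and conditional binomial for ratios, and do not cover variation between cultures or RNA preparations. Depth was 66892 to 130048 human counts per line.

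Sequences came from a RefSeq table of GRCh38.p14. Of the 53 members 22 matched by name and 13 by the arm in the study's name list, and for 18 no arm was named. Members given with values were those detected in all 5 lines, those 2-fold above every other line, the 3 highest in each line, both arms where an arm was detected in any line, and those nearest each threshold. A few others were named after their values were seen. The members and lists were chosen with earlier results of these data known. Detection in Meg-01 alone, the interval call, the runs without Raji and the runs with no line entered at its threshold were added after seeing the data. Alternatives were other scalings, other thresholds and subtraction.

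The calculation was tested on simulated data with known changes. A first simulation, with all changed probes raised in 1 line, moved that line's scaling factor and recovered too few of them. The simulation was then changed to equal numbers raised and lowered, and the calculation was not changed. Most of the raised probes that were expected well above the threshold were called. Recovery of lowered probes and of raised probes near the threshold was not scored. A one-sided change of many abundant miRNAs would thus be understated by this scaling. Calculations used Python 3.11.15, numpy 2.4.6, pandas 2.3.3, scipy 1.17.1 and matplotlib 3.10.9.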

Additional observations from a re-analysis of the deposited data

How the results depend on the processing

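Meg-01 had the most detected members under every threshold tried except the deposited signal above 0, where it tied with Jurkat, but how far it lay above the others depended on the threshold. With the mean of the negative controls as threshold 46, 38, 34, 35 and 34 members were detected in Meg-01, Jurkat, Raji, U937 and K562, 23 in all 5 lines and 4 in Meg-01 alone, against 72.9%, 71.3%, 61.9%, 67.9% and 62.8% of all human probes in those lines, 43.3% in all 5 and 2.45% in Meg-01 alone. With the deposited signal above 0 the counts were 46, 46, 34, 35 and 27, with 19 in all 5 lines and 2 in Meg-01 alone (human probes 72.9%, 87.2%, 61.9%, 67.9% and 55.8%, with 41.3% and 1.22%). With a raw minimum of 30 counts Meg-01 had 38, Jurkat 19, Raji 25, U937 18 and K562 14 members, 8 were detected in all 5 lines and 13 in Meg-01 alone (human probes 46.6%, 46.6%, 43.4%, 40.5% and 35.9%, with 23.2% and 3.98%). Under the mean plus 3 SD Meg-01 had 25 (21.6% of human probes), Jurkat 7 (25.2%) and U937 5 (20.8%), with 2 in all 5 lines (11.6%). Under a threshold from the virus probes other than EBV Meg-01 had 27 (23.9%), Jurkat 3 (20.6%), U937 5 (21.6%) and K562 4 (19.0%), with 2 in all 5 lines (11.6%). With the lower Poisson limit above the threshold Jurkat had 5, Raji 2, U937 4 and K562 4, with 2 in all 5 lines (10.7%), and the shares of human probes in each line are given with that call above. Under these last 3 settings and the highest negative control, and without Raji, 16 to 23 members were detected in Meg-01 alone, of 16 to 31 human probes. The call of 2-fold above every other line in Meg-01 gave 13 members of 20 human probes without scaling and 7 to 11 of 11 to 18 under the other scalings, with the threshold subtracted, without Raji or with no line entered at its threshold. All 8 members were among those called in each of these settings except with the threshold subtracted, which called 7 of them, and under each setting planned for it no member was called in another line. The interval of Meg-01 lay above every other line for 19 members of 34 human probes (5.20%) without scaling, for 16 of 27 (4.13%) scaled to the positive controls and for 15 of 29 (4.43%) scaled to the summed human counts, against 11 of 17 (2.6%) as reported. With the threshold subtracted the members' share of counts was 4.05% in Meg-01, 0.414% in U937, 0.386% in Raji, 0.278% in K562 and 0.242% in Jurkat. No paired analysis was possible because each line had 1 sample, and no sample could be left out of a line. Depth limits all statements on members below about the threshold of their line, most of all in Raji, where the threshold was 72.4 scaled counts.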
